A study of Penicillium oxalicum with 18 samples.

Results

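Wild-type mycelium of the filamentous fungus Penicillium oxalicum, strain 114-2, was compared after growth on N-acetylglucosamine (GlcNAc) and after growth on glucose. The comparison consists of the 6 libraries whose titles place them in these groups, 3 in GlcNAc and 3 in glucose, out of 18 libraries in the series. All cultures were started in a pre-culture with 2% glucose for 24 h at 30 °C, and the mycelium then grew for another 24 h with 2% GlcNAc or 2% glucose. The other 12 libraries hold the wild type on 1% bran plus 1% microcrystalline cellulose, and a vib1 deletion strain on the same 3 media. They entered the statistical model, and the deletion strain's 3 GlcNAc and 3 glucose libraries were used to ask whether its response differed. GlcNAc is named in the sample labels and the series' design text, while the growth protocol covers just the remaining 2 media. Whether the deletion strain was a single transformant is not stated. Nothing in the labels says whether replicates were separate cultures, so p-values measure the spread between these libraries, which may be technical.

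Glucose is the preferred carbon source of most filamentous fungi, and its presence keeps many genes for other carbon sources low, a state called carbon catabolite repression. GlcNAc is the sugar unit of chitin, a structural polymer of the fungal cell wall. Fungi take it up, phosphorylate it, remove its acetyl group and its amino group, and so obtain fructose 6-phosphate for glycolysis together with acetate and ammonium. It is therefore a source of nitrogen as well as carbon, and in several fungi it also acts as a signal for development and cell wall turnover. Vib1, a transcription factor with a DNA-binding domain of the p53-like type, is known from Neurospora for a part in cell death upon fusion of unlike strains and in the response to carbon and nitrogen supply.

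Expression was given as FPKM for 9176 gene models, a unit that scales read fragments by gene length and by all mapped fragments. The labels describe libraries of short tags cut next to a restriction site, and how FPKM were computed from them is not given in the sources used here. Levels set side by side between gene models, level classes and shares of total FPKM depend on that scaling. The table gives identifiers only, and 0 of them matched a row of the reference table, which describes another strain of the species. Gene models therefore stand under their identifiers, with no name or function, no list of genes by function was counted, and the level of vib1 itself was not examined. FPKM summed to 1079700 to 1119470 per library in GlcNAc and to 1008870 to 1029070 in glucose. Between 726 and 744 gene models were listed at 0 in a GlcNAc library, and between 736 and 772 in a glucose library. Rank correlations (Spearman) were 0.990 to 0.991 between GlcNAc libraries, 0.985 to 0.989 between glucose libraries, and 0.915 to 0.922 across the media. The read depth is unknown. In such bulk RNA, fewer cells of a kind and less RNA per cell cannot be told apart.

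Most gene models differed in level between GlcNAc and glucose, and most of these by less than a doubling. Testing was limited to the 8455 gene models that reached 1 FPKM in 3 or more of the 18 libraries. Of these, 4992 were called (59.0%), at a Benjamini-Hochberg adjusted p under 0.05 by limma on log2(FPKM + 1). Among them 2792 were higher in GlcNAc (33.0% of those tested) and 2200 lower (26.0%). A difference of at least 1 log2 unit, a doubling or halving on this scale, was reached by 1429 called gene models (16.9%), of which 632 were higher (7.47%) and 797 lower (9.43%). The split between higher and lower calls moved with the scaling of the libraries: rescaling each library to the same total FPKM gave 2250 higher and 2591 lower, and median-ratio rescaling gave 2504 and 2501. The balance of all calls thus has no fixed direction, whereas lower calls outnumbered higher ones at 1 log2 unit under each scaling, with 542 higher and 905 lower at the same total, and 579 higher and 892 lower after median-ratio rescaling.

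Most of the larger differences also separated the individual libraries. All 3 GlcNAc libraries stood above all 3 glucose libraries in 3334 of the gene models tested (39.4%) and below them in 2588 (30.6%). Of the 632 higher gene models 623 showed no overlap between the media, and of the 797 lower ones 793 showed none. Large differences were more often decreases. At 4 log2 units or more 25 gene models were higher and 45 lower, and at 6 log2 units or more 4 were higher and 5 lower. Of the 45, 14 belong to 1 run of consecutive identifier numbers described below, PDE_09227 to PDE_09247, and 31 lie outside it. The middle 50% of all gene models tested lay between −0.38 and 0.45 log2 units, around a median of 0.07.

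**Figure D1:**
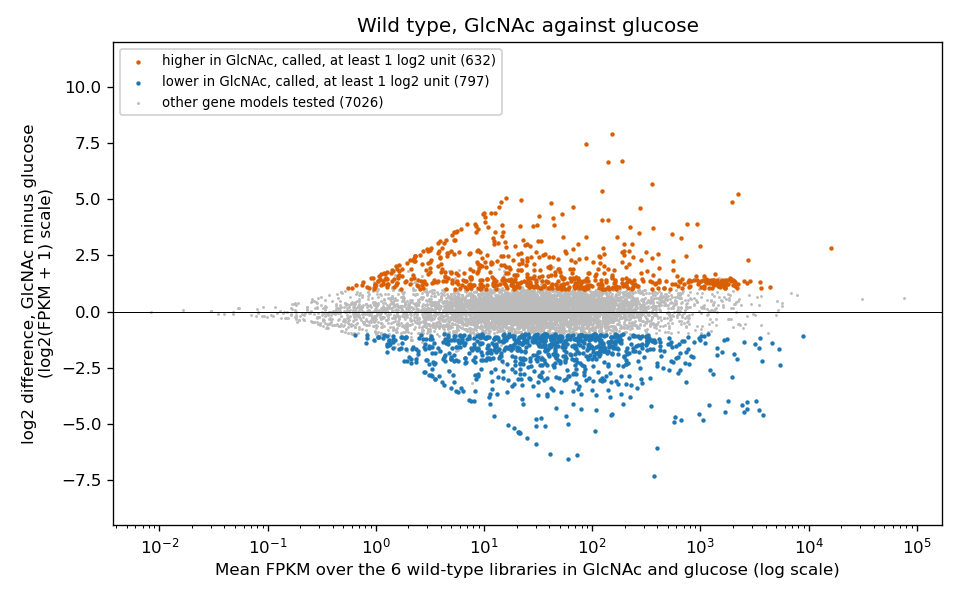
Each point is 1 gene model: its mean FPKM over the 6 wild-type libraries (log axis) against the log2 difference, GlcNAc minus glucose. The 632 higher and 797 lower gene models at 1 log2 unit are coloured, and at 1000 FPKM or more 66 of the 72 higher ones lie between the threshold of 1 and 1.5 log2 units, with a maximum of 5.24, while the 34 lower ones reach down to −4.83.

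The 4 gene models named for the largest log2 differences, with all libraries above 0, were low in 1 medium and well expressed in the other. PDE_00348 had 361, 391 and 363 FPKM in GlcNAc, against 2.97, 3.49 and 1.45 FPKM in glucose. PDE_01113 had 294, 295 and 240 FPKM in GlcNAc, against 3.26, 2.19 and 0.48 FPKM in glucose. In both, every GlcNAc library lay far above every glucose library, and the glucose libraries were all under 4 FPKM. The log2 difference was 6.72 ± 0.918 for PDE_00348 (SE; limma adjusted p = 2.23e-05) and 6.66 ± 0.881 for PDE_01113 (adjusted p = 1.63e-05).

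PDE_01629 and PDE_09417 moved the other way. PDE_01629 had 3.32, 3.35 and 3.99 FPKM in GlcNAc, against 722, 778 and 716 FPKM in glucose (log2 difference −7.35 ± 0.168, SE; limma adjusted p = 9.64e-14). PDE_09417 had 10.9, 10.5 and 10.8 FPKM in GlcNAc, against 843, 895 and 638 FPKM in glucose (−6.07 ± 0.200, adjusted p = 7.31e-12). The 3 GlcNAc libraries lay close together for both gene models. On bran plus cellulose the wild type had 1.60, 1.00 and 1.46 FPKM of PDE_01629, and 1936, 2014 and 1228 FPKM of PDE_09417. The level of PDE_01629 was higher in GlcNAc than on bran plus cellulose by 0.96 ± 0.168 log2 units (limma adjusted p = 1.69e-04), and both levels were far below that in glucose. PDE_09417 was thus low in GlcNAc and abundant in both other media, with a difference between GlcNAc and bran plus cellulose of −7.17 ± 0.200 log2 units (adjusted p = 4.24e-13). Both comparisons with bran plus cellulose use the same GlcNAc libraries by which these gene models were named.

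By the amount of transcript gained or lost, other gene models led. Of those called with at least 1 log2 unit, PDE_04665 gained the most, with 30372, 29918 and 24053 FPKM in GlcNAc, against 4276, 3527 and 4192 FPKM in glucose (log2 difference 2.81 ± 0.235, SE; limma adjusted p = 1.38e-07). PDE_00965 had 4241, 4349 and 4329 FPKM in GlcNAc, against 108, 110 and 122 FPKM in glucose (5.24 ± 0.184, adjusted p = 1.47e-11). The level of PDE_00965 in wild type on bran plus cellulose, 79.2, 101 and 170 FPKM, overlapped that in glucose, so among the 3 media its abundance was high in GlcNAc alone. Of the same set, PDE_07202 lost the most, with 1789, 2025 and 1438 FPKM in GlcNAc, against 10811, 9105 and 7733 FPKM in glucose (−2.40 ± 0.225, adjusted p = 4.68e-07). PDE_09239 had 332, 324 and 233 FPKM in GlcNAc, against 6382, 7544 and 7805 FPKM in glucose (−4.62 ± 0.833, adjusted p = 2.62e-04). The groups did not overlap for any of these 4 gene models.

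**Figure D2:**
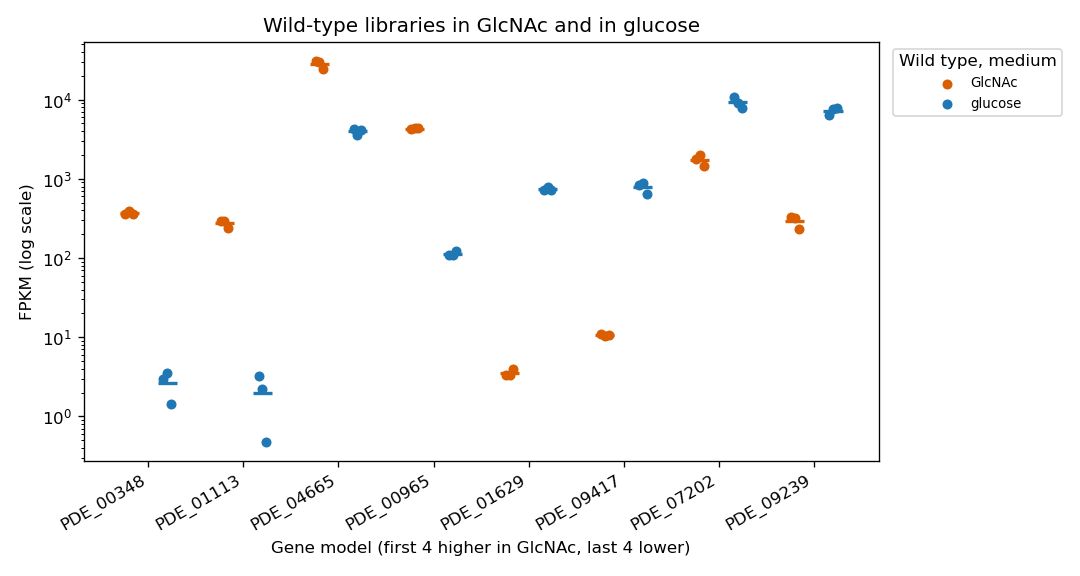
FPKM (log axis) of the 8 gene models named for the largest log2 difference or the largest FPKM difference, with a point for each wild-type library and a bar at the group mean, GlcNAc left of glucose. The media do not overlap for any of the 8, and the widest spread within a medium is that of PDE_01113 in glucose, at 3.26, 2.19 and 0.48 FPKM.

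Some gene models were listed at 0 throughout 1 of the media. Of 476 gene models listed at 0 in all glucose libraries, 48 were above 0 in all 3 GlcNAc libraries, and 8 of these reached 10 FPKM in each. Of 478 listed at 0 in all GlcNAc libraries, 39 were above 0 in all 3 glucose libraries, 12 of them at 10 FPKM or more. An exact 0 can be a failed estimate, since 118 zeros in these 6 libraries stood beside a replicate above 10 FPKM, and no fold is given for such genes. PDE_08250 had 177, 186 and 160 FPKM in GlcNAc and was listed at 0 in glucose (limma adjusted p = 4.68e-16). It was listed at 0 in the other 15 libraries of the series too. PDE_00219, with the next highest mean, was at 0, 0 and 131 FPKM in GlcNAc and 0 in glucose, a single library that did not pass the test (adjusted p = 0.389). PDE_04964 was listed at 0 in GlcNAc, against 73.7, 75.9 and 96.5 FPKM in glucose (adjusted p = 4.68e-16). PDE_04964 was not at 0 in the deletion strain, which had 145, 146 and 136 FPKM in GlcNAc, against 76.6, 88.7 and 83.6 FPKM in glucose. PDE_03439 was listed at 0 in GlcNAc, against 47.8, 62.2 and 69.9 FPKM in glucose (adjusted p = 2.02e-08), and it was also at 0 in all wild-type libraries from bran plus cellulose.

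Among the most abundant transcripts, increases by a little over a doubling were frequent. Of the 194 gene models with a mean of at least 1000 FPKM over the 6 libraries, 72 (37.1%) were called higher by at least 1 log2 unit and 34 (17.5%) lower, against 7.47% and 9.43% of all gene models tested. In the class of 100 to 1000 FPKM the shares were 9.15% higher and 14.5% lower, and in that of 10 to 100 FPKM 5.11% and 8.11%. Higher calls thus outnumbered lower ones in the top class and not in those below it down to 10 FPKM, and in the top class rescaling to the same total still gave 60 higher and 38 lower. Of the 72, 66 rose by less than 1.5 log2 units, and the 72 had quartiles of 1.19 and 1.39 around a median of 1.32. The threshold of 1 log2 unit sets the lower end of this range. All 194 had quartiles of −0.52 and 1.25 around a median of 0.49. The 34 that fell had quartiles of −4.02 and −1.40 around a median of −2.04. Most of those lower by at least 4 log2 units, down to −4.83 for PDE_09232, belong to the run PDE_09227 to PDE_09247 described below.

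**Figure D3:**
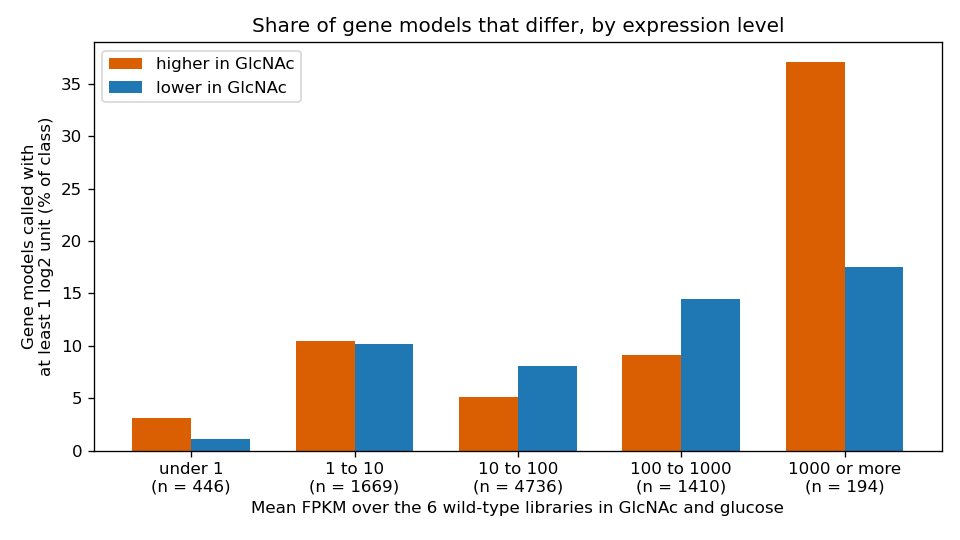
Percent of gene models called with at least 1 log2 unit in 5 classes of mean FPKM, higher in GlcNAc (left bars) and lower (right bars), with the number tested under each class. The top class has 37.1% higher and 17.5% lower, and the class of 100 to 1000 FPKM 9.15% and 14.5%.

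These 72 abundant gene models took up 18.3%, 18.3% and 17.9% of all FPKM in the GlcNAc libraries, against 7.07%, 6.87% and 7.06% in the glucose libraries. They were chosen for being higher in GlcNAc, so the gap is a description of its size. The deletion-strain libraries did not enter these wild-type differences, but they shared in the error estimate and the filter behind the calls. In them, 68 of the 72 were called higher in GlcNAc (41.8% of all gene models tested were) and 2 lower (27.0%), with a median difference of 1.57 log2 units. There they made up 6.03%, 5.77% and 5.58% of FPKM in GlcNAc, against 3.17%, 2.33% and 1.71% in glucose. The response of the 2 strains was called different for 17 of the 72 (59.3% of all tested).

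The most abundant gene models held a larger share of all FPKM in GlcNAc than in glucose. The 100 most abundant gene models held 41.1%, 40.5% and 39.8% of FPKM in GlcNAc, against 38.6%, 37.9% and 37.4% in glucose, with no overlap between the media. The 10 most abundant held 19.6%, 18.7% and 18.1% in GlcNAc, against 15.3%, 14.3% and 14.1% in glucose. A share of 50% of all FPKM came from 167 to 178 gene models in GlcNAc, and from 213 to 229 in glucose. With 3 libraries a side the exact two-sided permutation test cannot go below p = 0.1, which each of these 3 measures reached (0.15 after adjustment over 6 library measures). The membership changed as well: 51 of the 100 most abundant gene models were shared between the media, and 3 of the 10. PDE_09832, singled out after its values were seen as the most abundant gene model in all 6 libraries, had 100261, 91196 and 87611 FPKM in GlcNAc, against 65740, 56472 and 58991 FPKM in glucose. It held 8.96%, 8.25% and 8.11% of all FPKM in GlcNAc, against 6.45%, 5.60% and 5.73% in glucose. The mean surplus of the 100 most abundant in GlcNAc, 2.44 percentage points, is thus about as large as that of PDE_09832 alone. Its difference of 0.62 ± 0.351 log2 units was not called in the model of all 18 libraries (limma adjusted p = 0.142), and was called when only the 6 libraries compared were fitted (adjusted p = 5.83e-04). The deletion strain had 92946, 93938 and 77643 FPKM of it in GlcNAc, against 651, 1351 and 3015 FPKM in glucose, so that its response was smaller in wild type by 5.36 ± 0.497 log2 units (adjusted p = 2.93e-07).

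A part of the transcriptome stayed close to its level in glucose. The 95% interval of the difference lay within 0.5 log2 units on either side of 0 for 2333 gene models (27.6% of those tested). Of these, 543 were also called different between the media, and with a pseudocount of 5 the interval lay within these bounds for 3522. Among the 194 gene models of at least 1000 FPKM, 18 were of this kind. The most abundant of them, PDE_09900, had 4768, 4664 and 4689 FPKM in GlcNAc, against 5471, 5210 and 5112 FPKM in glucose (−0.16 log2 units, 95% interval −0.34 to 0.02). PDE_07008 had 2892, 2930 and 2931 FPKM in GlcNAc, against 3232, 3256 and 3082 FPKM in glucose (−0.13 log2 units, interval −0.39 to 0.13). Both were lower on bran plus cellulose, where PDE_09900 had 798, 705 and 740 FPKM and PDE_07008 had 795, 797 and 752 FPKM. The libraries in GlcNAc and glucose did not overlap for either, and a fit to these 6 libraries alone called both decreases, with limma adjusted p of 0.0236 for PDE_09900 and 0.0464 for PDE_07008. Neither was steady in the deletion strain, where PDE_09900 fell by 1.80 ± 0.0829 log2 units in GlcNAc (adjusted p = 5.69e-11) and PDE_07008 by 2.69 ± 0.122 (adjusted p = 4.51e-11).

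Gene models that fell on GlcNAc were often neighbours in the numbering of the identifiers. Where a gene model lower by at least 1 log2 unit was followed by the next number in the table, that next one was lower too in 172 of 684 cases (25.1%), against 9.26% over all 7183 pairs of consecutive numbers tested. For higher gene models the share was 78 of 515 (15.1%), against 7.34% of all pairs. The next number moved in the opposite direction in 8.19% of cases after a lower and 7.77% after a higher gene model, against 7.34% and 9.26% of all pairs. No genome of the files' build was used, so consecutive numbers are not shown here to be neighbouring genes.

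The longest run of lower gene models had 21 consecutive numbers, PDE_09227 to PDE_09247, and held some of the most abundant transcripts of the glucose cultures. Its summed FPKM was 3031, 3114 and 2395 in the GlcNAc libraries, against 49551, 55279 and 55148 in the glucose libraries, which is 0.271%, 0.282% and 0.222% of all FPKM in GlcNAc, against 4.86%, 5.48% and 5.36% in glucose. In glucose 13 or 14 of the 21 were above 1000 FPKM in a library, and in GlcNAc none was. All 21 were lower by at least 1 log2 unit, 14 of them by at least 4 units, with a range from −4.92 to −1.12 and a median of −4.21. The run was picked as the longest from these values, so its members' calls are a description and not a test of the run.

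Most members of the run differed widely in level and little in the size of the decrease. PDE_09236 had 355, 376 and 246 FPKM in GlcNAc, against 6117, 7508 and 6424 FPKM in glucose (log2 difference −4.37 ± 0.845, SE; limma adjusted p = 4.64e-04). PDE_09237, with the largest decrease, had 37.6, 39.9 and 29.5 FPKM in GlcNAc, against 958, 1147 and 1201 FPKM in glucose (−4.92 ± 0.912, adjusted p = 3.31e-04). The 15 members from PDE_09228 to PDE_09242 all fell by between 3.99 and 4.92 log2 units, although their glucose means ran from 665 to 7244 FPKM. At the ends the decreases were smaller: PDE_09227 had 46.4, 47.1 and 47.2 FPKM in GlcNAc, against 170, 170 and 172 FPKM in glucose. PDE_09245, PDE_09246 and PDE_09247 were at or under 5.41 FPKM in all 6 libraries, and PDE_09246 was at 0, 0 and 1.62 FPKM in GlcNAc.

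The gene models just outside the run were low in both media. PDE_09226 had 5.56, 6.62 and 4.98 FPKM in GlcNAc, against 6.27, 6.71 and 8.60 FPKM in glucose. PDE_09248 was listed at 0 in GlcNAc and at 0.20, 0.20 and 0.19 FPKM in glucose. Slightly further on, PDE_09250 and PDE_09251 were again called lower in GlcNAc, with a median of −1.69 log2 units. The numbers inside the run were also lower in GlcNAc than on bran plus cellulose, where its sum was 24463, 22021 and 13259 FPKM: 17 of the 21 were called lower in GlcNAc than in that medium (33.2% of all gene models tested were). That comparison uses the same GlcNAc libraries by which the run was picked, so the count is a description. The edge PDE_09226 behaved differently there, with 790, 721 and 663 FPKM.

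Deletion-strain cultures also had the run lower in GlcNAc, with 1 library apart. Its sum was 110, 107 and 116 FPKM in the deletion strain in GlcNAc, against 1537, 23522 and 26730 FPKM in glucose. Replicate 1 of the deletion strain in glucose thus lay far below the other two, and this spread entered the shared error of the members. There 20 of the 21 were called lower in GlcNAc (27.0% of all gene models tested were), with a median of −7.08 log2 units. PDE_09242, at 2.90, 1290 and 1452 FPKM there, was affected most: its wild-type decrease of −4.18 ± 1.52 log2 units (limma adjusted p = 0.0287) was not called when any 1 wild-type library was left out (adjusted p between 0.0562 and 0.0709), and had an adjusted p of 2.6e-06 in a fit to the 6 libraries compared. PDE_09246 likewise lost its call (adjusted p = 0.0382) without GlcNAc replicate 1 (0.128), GlcNAc replicate 2 (0.127) or glucose replicate 1 (0.168). Leaving out a wild-type library therefore shortened the longest run of called numbers to 15 in each case.

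**Figure D4:**
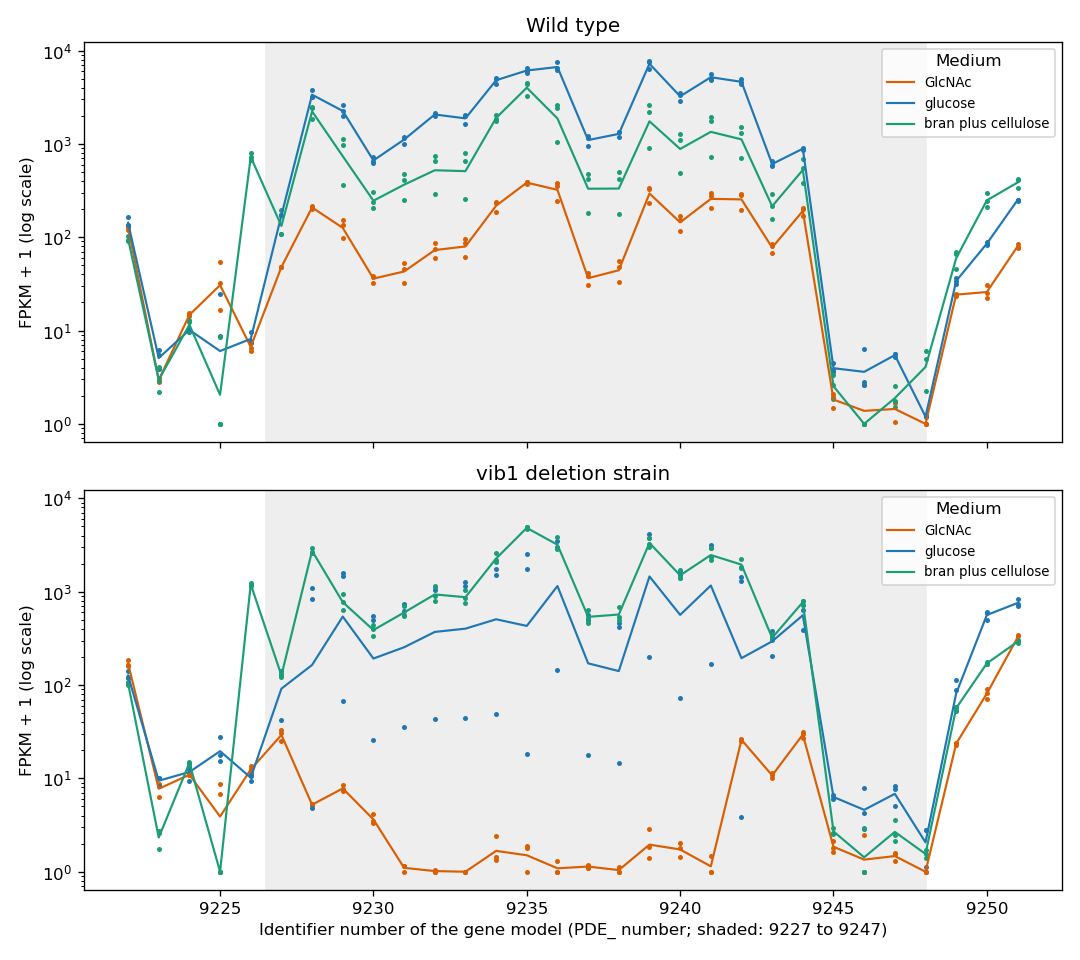
FPKM + 1 (log axis) against identifier number around the run PDE_09227 to PDE_09247 (shaded), wild type above and the vib1 deletion strain below, with a point for each library and a line through the geometric means of FPKM + 1 in each medium. In wild type the GlcNAc line runs below the glucose line across the shaded numbers, and in the deletion strain 1 glucose library lies far below the other two.

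The longest runs of higher gene models had 5 numbers. Of the 2 such runs, PDE_01478 to PDE_01482 had the larger median, 2.57 log2 units, and is described here. The other, PDE_04438 to PDE_04442, had a median of 1.73 for wild type and 1.76 for the deletion strain, where PDE_01478 to PDE_01482 had −1.27. The summed FPKM of PDE_01478 to PDE_01482 was 760, 812 and 884 in GlcNAc, against 138, 158 and 97.2 in glucose, and their log2 differences ran from 1.93 to 3.81. PDE_01479, the most abundant, had 496, 526 and 608 FPKM in GlcNAc, against 96.7, 99.4 and 65.6 FPKM in glucose (2.64 ± 0.768, SE; limma adjusted p = 0.0086). The next number in the table, PDE_01483, had 8.95, 8.16 and 6.73 FPKM in GlcNAc, against 6.03, 5.26 and 5.23 FPKM in glucose, below the threshold of 1 log2 unit. The number before the run, PDE_01475, was listed at 0 in all 6 libraries. The test called 3 of the 5 lower and 0 higher in GlcNAc in the deletion strain (27.0% lower and 41.8% higher among all tested), with a summed FPKM of 3.89, 4.11 and 4.29 in GlcNAc, against 75.7, 65.9 and 55.5 in glucose. All 5 were called higher in wild type in GlcNAc than on bran plus cellulose (27.6% of all tested were), where the sum was 15.0, 12.6 and 40.2 FPKM. The run was picked for being high in these same GlcNAc libraries, so this count too is a description.

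The strains' responses to GlcNAc were called different for 5014 gene models (59.3% of those tested), by a test of the difference of the 2 differences. The response was more positive in wild type for 2284 (27.0%) and more negative for 2730 (32.3%). The 2 responses share no library. Within the deletion strain 41.8% of gene models were called higher and 27.0% lower in GlcNAc, and 13.5% and 14.4% with at least 1 log2 unit.

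The gene models with the strongest increases in wild type mostly showed small differences in the deletion strain, and those with the strongest decreases mostly fell there too. The 25 gene models that rose by at least 4 log2 units in wild type, with a median of 4.66, had a median of 0.40 in the deletion strain, where 9 were called higher (41.8% of all tested were), 1 lower (27.0%) and 15 neither. The share called higher is near that of all gene models, whose deletion-strain median was 0.17. The 45 that fell by at least 4 units, with a median of −4.69, had a median of −4.97 in the deletion strain, where 36 were called lower (27.0% of all tested were), 4 higher (41.8%) and 5 neither. For smaller differences the contrast was weaker: the 450 gene models that rose by 1 to 2 units had a median of 0.46 in the deletion strain, and the 516 that fell by 1 to 2 units had −0.75. The strain difference was called for 24 of the 25 and 30 of the 45 (59.3% of all tested), counts that contain the wild-type values by which these gene models were chosen and are therefore a description. Of the 45 that fell, 14 belong to the run PDE_09227 to PDE_09247 and had a median of −4.48 log2 units for wild type, with −8.05 for the deletion strain. The other 31 had −5.04 for wild type, with −3.15 for the deletion strain, where 23 were called lower, so the likeness of the medians of all 45 rests on the run.

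In levels, the 25 strongly rising gene models had a median of 101 FPKM in wild type in GlcNAc, against 2.24 FPKM in glucose. Their deletion-strain median was 2.52 FPKM in GlcNAc, against 0.46 FPKM in glucose, and none of them averaged 100 FPKM in either medium. On bran plus cellulose the medians were 9.43 FPKM for wild type and 8.39 FPKM for the deletion strain. The 45 strongly falling gene models had a median of 4.85 FPKM in wild type in GlcNAc, against 150 FPKM in glucose. Their medians in the deletion strain were 3.43 FPKM in GlcNAc, against 358 FPKM in glucose. The log2(FPKM + 1) scale compresses differences below about 1 FPKM, where 7 of the 25 were listed at 0 in all deletion libraries in glucose and 6 in all in GlcNAc.

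**Figure D5:**
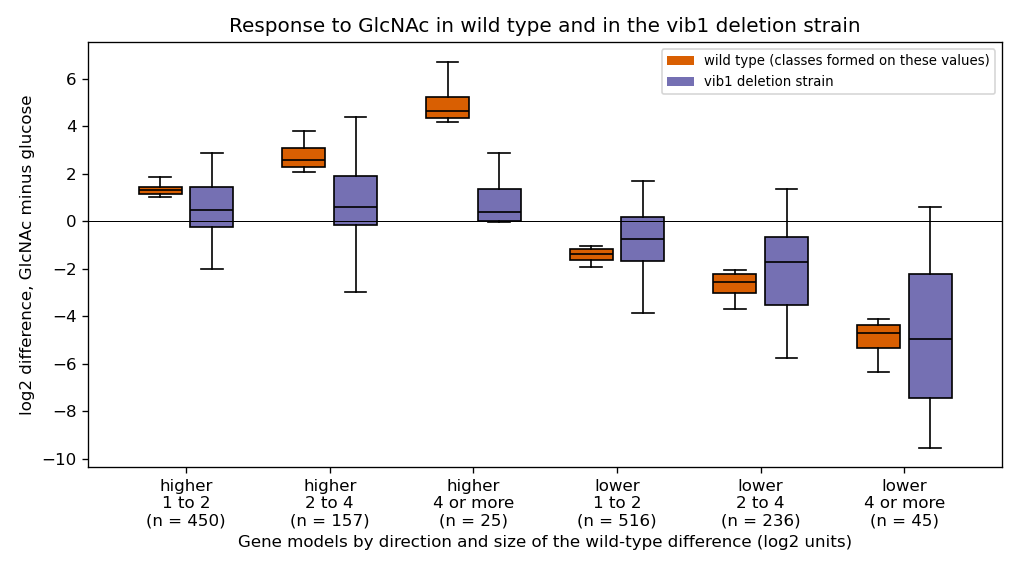
Boxes (quartiles, line at the median, whiskers from the 5th to the 95th percentile) of the log2 difference, GlcNAc minus glucose, in wild type (left) and the deletion strain (right), for gene models grouped by their wild-type difference. In the class that rose by 4 units or more the deletion strain's median is 0.40, and in the class that fell by 4 or more it is −4.97.

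Some gene models rose in wild type in GlcNAc and stayed low in the deletion strain in both GlcNAc and glucose. PDE_01737 had 282, 330 and 305 FPKM in wild type in GlcNAc, against 0.04, 0 and 0.98 FPKM in glucose. Its deletion-strain values were 3.03, 0 and 4.54 FPKM in GlcNAc, against 0.54, 0.23 and 2.69 FPKM in glucose, which put the wild-type response higher by 7.35 ± 1.20 log2 units (SE; limma adjusted p = 1.08e-04). PDE_00965, the abundant GlcNAc transcript described above, reached 32.7, 36.8 and 32.1 FPKM in the deletion strain in GlcNAc, against 15.6, 17.0 and 14.4 FPKM in glucose (difference of responses 4.17 ± 0.260, adjusted p = 3.83e-09). PDE_01113 had 0.45, 0.56 and 0.24 FPKM in the deletion strain in GlcNAc, against 0.25, 0.25 and 0.96 FPKM in glucose (6.71 ± 1.25, adjusted p = 3.32e-04). PDE_01737 was named for its strain difference, and PDE_00965 and PDE_01113 for wild-type values that are part of it. These p-values are therefore a description. PDE_01737 and PDE_01113 were not called between GlcNAc and glucose in the deletion strain, and PDE_00965 rose there by 1.06 ± 0.184 log2 units (adjusted p = 1.08e-04). On bran plus cellulose the deletion strain had 63.67, 51.25 and 4.67 FPKM of PDE_01737, and 100.18, 76.41 and 3.48 FPKM of PDE_01113. It had 8.44, 8.77 and 7.96 FPKM of PDE_00965 in that medium.

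Other gene models changed more in the deletion strain than in wild type, or in the opposite direction. PDE_01194 fell in wild type to 27.4, 30.4 and 27.3 FPKM in GlcNAc, against 359, 240 and 204 FPKM in glucose. The deletion strain fell to 1.42, 0 and 6.03 FPKM in GlcNAc, against 7356, 4957 and 5071 FPKM in glucose, a response lower than that of wild type by 7.96 ± 0.804 (SE, log2; limma adjusted p = 9.26e-07). PDE_02128 fell in wild type to 751, 720 and 589 FPKM in GlcNAc, against 1532, 1372 and 1452 FPKM in glucose. The deletion strain had 902, 920 and 921 FPKM in GlcNAc, against 1.15, 1.09 and 2.71 FPKM in glucose, the opposite direction (−9.57 ± 0.254, adjusted p = 2.18e-13). PDE_03182 likewise fell in wild type, with 20.1, 21.4 and 22.0 FPKM in GlcNAc, against 89.2, 84.4 and 106 FPKM in glucose. It rose in the deletion strain, with 76.1, 63.1 and 56.4 FPKM in GlcNAc, against 0.30, 0.15 and 0.44 FPKM in glucose (−7.75 ± 0.394, adjusted p = 4.19e-10). For PDE_02128 and PDE_03182 every deletion-strain library lay above every wild-type library in GlcNAc and far below them in glucose. PDE_01194, PDE_02128 and PDE_03182 were named for the size of the strain difference, so its p-values are a description here too.

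PDE_04665 rose in both strains. Its deletion-strain level was 2307, 1972 and 1858 FPKM in GlcNAc, against 3.51, 3.13 and 8.78 FPKM in glucose, so that its response was smaller in wild type by 5.68 ± 0.333 log2 units (SE; limma adjusted p = 1.9e-09). All wild-type libraries of this gene model, in any of the 3 media, held at least 3527 FPKM.

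Few of the large differences could be shown to be alike in size in the strains, a smaller share than among all gene models tested. Of the 632 gene models higher by at least 1 log2 unit in wild type, 18 had a 95% interval of the strain difference wholly within 0.5 log2 units, and of the 797 lower ones 16 did, against 1218 of all 8455 tested. A wider interval does not show that the strains differ. PDE_08300 had the largest decrease of this kind, with 7.01, 6.28 and 7.50 FPKM in wild type in GlcNAc, against 77.2, 61.2 and 54.8 FPKM in glucose, and 8.22, 7.62 and 8.06 FPKM in the deletion strain in GlcNAc, against 79.9, 65.2 and 59.2 FPKM in glucose. Its log2 differences were −3.03 ± 0.128 for wild type and −2.94 ± 0.128 for the deletion strain (SE; limma adjusted p = 1.06e-10 and 2.87e-11). PDE_01684 fell by 2.16 ± 0.0927 log2 units for wild type and by 2.32 ± 0.0927 for the deletion strain (limma adjusted p = 1.34e-10 and 1.16e-11).

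The largest increase of this kind was that of PDE_03181, with 62.9, 69.8 and 64.8 FPKM in wild type in GlcNAc, against 18.2, 15.1 and 16.2 FPKM in glucose. The deletion strain had 43.6, 39.2 and 36.1 FPKM in GlcNAc, against 11.5, 9.87 and 9.95 FPKM in glucose, and the log2 differences were 1.93 ± 0.0956 and 1.83 ± 0.0956 (SE; limma adjusted p = 6.08e-10 and 2.29e-10). PDE_04438 rose by 1.67 ± 0.135 log2 units for wild type and by 1.76 ± 0.135 for the deletion strain, but from unequal levels, with glucose means of 11.5 FPKM for wild type and 1.51 FPKM for the deletion strain. With a pseudocount of 5 its responses differed by 0.47 log2 units (limma adjusted p = 0.00448), so the likeness depended on the pseudocount.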

How the data were processed

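Per the labels' protocols, mRNA was captured on oligo(dT) beads, the cDNA was cut with NlaIII, tags were released with MmeI, and Illumina sequencing followed. The authors deposited FPKM, per the file headers. They came with aligner, quantifier and genome build not given in the sources used here. Depth is unknown, so no counting interval is given.

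FPKM were analysed as log2(FPKM + 1), which understates differences of low gene models. Those reaching 1 FPKM in 3 or more of 18 libraries were tested (8455, with 721 left out). Using limma 3.58.1 (R 4.3.3), all libraries were fitted by 6 group means with trended, robust eBayes, leaving 12 residual degrees of freedom, a script tested on simulated data. Tests were two-sided across all gene models tested. Groups wholly at 0 add no spread, which can make p-values of such gene models too small. 28 of 30 models with XLOC identifiers were tested. Plots used matplotlib 3.10.9.

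Named gene models followed fixed rules, 2 higher and 2 lower each: largest log2 difference with all libraries above 0, no overlap and 10 FPKM; largest FPKM difference; listed at 0 in 1 medium; largest strain difference of the response; largest difference alike in the strains (95% interval within 0.5 log2 units); also the 2 most abundant steady ones and the longest runs. The members and rules were chosen with earlier results of these data known. The classes by level and by size of the difference were chosen after the values were seen.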

Additional observations from a re-analysis of the deposited data

Results flagged for a closer look

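The named gene models below were singled out because the test of the difference between the wild-type and deletion-strain responses to GlcNAc was passed (limma adjusted p under 0.05). Since 59.3% of all gene models tested passed it, a pass is not particular to them. The difference, wild type minus deletion strain, was 6.71 log2 units for PDE_01113, 1.66 for PDE_01629, 0.71 for PDE_09417 and −5.68 for PDE_04665. It was 4.17 for PDE_00965, 4.93 for PDE_09239, 7.96 for PDE_01194, 7.35 for PDE_01737, −9.57 for PDE_02128 and −7.75 for PDE_03182. The call of PDE_09417 was lost with a pseudocount of 0.1, with the same total FPKM and in 8 of the 12 settings that left out 1 library.

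In the run PDE_01478 to PDE_01482 the difference was 6.95 for PDE_01479, 5.78 for PDE_01480, 1.80 for PDE_01481 and 3.85 for PDE_01482. In the run PDE_09227 to PDE_09247, beside PDE_09239, it was 3.16 for PDE_09231, 3.69 for PDE_09232, 3.78 for PDE_09234, 5.67 for PDE_09236, 3.86 for PDE_09240, 5.66 for PDE_09241, 1.80 for PDE_09243 and 2.03 for PDE_09244. Replicate 1 of the deletion strain in glucose lies below its other replicates for these gene models. Without it, 7 further members of the run passed the test. Of the 10 that passed with all libraries, PDE_09231 lost the call in 3 of 12 settings that left out 1 library (2.38 to 4.58 log2 units over these settings), PDE_09232 in 2 (2.88 to 5.24) and PDE_09234 in 2 (2.88 to 5.46).

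For gene models listed at 0 in all libraries of a group, the limma adjusted p of the difference is given alone. It was 0.0171 for PDE_00348, 1.52e-14 for PDE_08250, 9.06e-15 for PDE_04964, 0.00261 for PDE_01478 and 0.0133 for PDE_09233. With a pseudocount of 0.1 the difference of PDE_00348 was no longer called (adjusted p = 0.478).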

How the results depend on the processing

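The counts of called gene models in the comparison of the media and in the strain comparison stayed within 1.5 times their values under all alternatives run: pseudocounts of 0.1 and 5, no filter or 10 FPKM, both rescalings, limma without trend and robust, only the groups compared, the replicate block and each library left out. At 1 log2 unit the count lay between 1068 (pseudocount 5) and 1579 (pseudocount 0.1), against 1429, and no gene model of the 1429 changed sign. The replicate block gave 1435, of which 1427 were shared. Same-numbered wild-type libraries did not deviate together (correlations of 0.00558, −0.0182 and −0.0476), so the numbers are not treated as pairs. The gene models within 0.5 log2 units numbered 3522 with a pseudocount of 5, and 5648 lay within 1 log2 unit. The surplus of the most abundant in GlcNAc was 2.44 percentage points for 100 gene models and 4.23 for 10. Leaving out 1 library gave 1407 to 1457 called gene models at 1 log2 unit and 4710 to 4973 in the strain comparison. The deletion strain's medians of 0.40 and −4.97 became 0.15 and −4.04 with a pseudocount of 5, and the second −3.15 without the run PDE_09227 to PDE_09247; alternatives for these medians, the runs and the top class were chosen after seeing the data. Of the single-gene values 9 changed sign under some alternative, 0 of them called with all libraries as reported; 7 were called with neither sign, and the changed sign was called in the strain difference of PDE_04438 (0.47, pseudocount 5) and PDE_09242 (1.54, without deletion-strain glucose replicate 1, against −1.28, and −2.73 without its replicate 3); the cause was not tested. Of 117 single-gene values 91 kept their side of the threshold throughout.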

Other observations

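Further runs of consecutive identifier numbers, chosen after their values were seen, fell by at least 1 log2 unit in wild type in GlcNAc. PDE_01212 to PDE_01219, 8 numbers, had a median of −2.08 log2 units for wild type and −3.30 for the deletion strain, and median levels of 6.67 FPKM in wild type in GlcNAc, against 53.2 FPKM in glucose. PDE_07204 to PDE_07208 had a median of −2.70 for wild type and −6.42 for the deletion strain. PDE_08904 to PDE_08908 had −2.78 for wild type and −0.91 for the deletion strain, and PDE_05450 to PDE_05454 had −2.32 for wild type and −1.15 for the deletion strain. PDE_02788 to PDE_02792 had −1.41 for wild type, with a median above 0, 0.44, for the deletion strain. Of higher runs, PDE_04438 to PDE_04442, with 5 numbers as long as PDE_01478 to PDE_01482, had a median of 1.73 for wild type and 1.76 for the deletion strain.

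PDE_00969, whose number lies close to that of PDE_00965 and which was also chosen after its values were seen, had 3686, 3760 and 3902 FPKM in wild type in GlcNAc, against 126, 133 and 128 FPKM in glucose (log2 difference 4.86 ± 0.279, SE; limma adjusted p = 2.68e-09). PDE_00965 and PDE_00969 were the only gene models among the 25 with the strongest increases that averaged over 1000 FPKM in wild type in GlcNAc.

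Of the 28 gene models tested whose identifiers start with XLOC, 7 rose and 1 fell by 1 log2 unit or more, against 7.47% and 9.43% of all gene models tested.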
